A study of Mus musculus with 10 samples.

Results

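Protocadherins are cadherin-related adhesion proteins of the cell surface, and the adult mouse hippocampus was examined here for their RNA after prenatal exposure to estradiol. Every non-control probe whose deposited gene name starts with Pcdh was taken, which gave 45 of 27376 gene names, read by 73 of 41174 probes. They fell into 6 probes of the alpha cluster, 28 of the beta cluster, 10 of the gamma cluster and 28 of the non-clustered genes. The remaining probe, Pcdha4-g, bears a name that joins alpha and gamma, lies within the gamma region, and was read apart. The rule uses names only, not measured values.

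RNA came from the hippocampus of 10 adult mice of the outbred ICR stock, all labelled male, and each was read on 1 array. In the high estradiol group (HE, 5 arrays), the pregnant dams had been given estradiol valerate, an ester that is split to estradiol in the body, by mouth in corn oil. The dose was 100 µg/kg per day from E5.5 to E11.5, counted in days of gestation. In the negative control group (NC, 5 arrays), the dams had been given corn oil alone. The offspring themselves received nothing as far as the labels state, and no allele was altered in either group. No litter is given, so animals of a group may share a dam, and the dams were what was dosed. Each p-value is set against the spread between single arrays, which holds differences between animals and between arrays together.

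Clustered protocadherins bind like to like between cells, and a neuron that makes its own combination of them can tell its own branches from those of other neurons. Each alpha or gamma transcript joins 1 variable exon, with a promoter of its own, to constant exons that all genes of that cluster share, whereas beta genes are single exons with no constant part. Promoter choice depends on CTCF, cohesin and DNA methylation. The non-clustered protocadherins are separate genes. Several of them steer axon growth, cell sorting and synapse formation, and several bind the WAVE complex, which drives actin assembly.

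The 4 probe sequences below show what the array reads: 3 are from genes with a called probe, Pcdh9, Pcdh10 and the X-linked Pcdh11x, and the fourth is from Pcdh19, also X-linked. They are the 60-base probes as the files give them, 5′ to 3′, with positions on mm9. The Pcdh9 probe matches chr14:94286116-94286175 on the minus strand, and the Pcdh19 probe matches chrX:130220413-130220472 on the minus strand. In both, capitals mark letters that fit the codons of a calcium-binding motif of cadherin repeats, GANNNNGANNNNGGNNNNAAN in Pcdh9 and GANNNNAANGANAAN in Pcdh19, where N is any base. The Pcdh10 probe, at chr3:45196739-45203246, and the Pcdh11x probe, at chrX:117478965-117513056, both on the plus strand, span more of the genome than their own length, so each crosses a splice junction.
Pcdh9: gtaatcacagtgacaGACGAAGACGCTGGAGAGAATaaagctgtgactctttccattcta
Pcdh10: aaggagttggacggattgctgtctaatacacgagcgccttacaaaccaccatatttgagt
Pcdh11x: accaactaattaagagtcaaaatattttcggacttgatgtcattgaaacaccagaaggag
Pcdh19: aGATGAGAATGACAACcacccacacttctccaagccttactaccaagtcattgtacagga
Searched on the printed strand only, the Pcdh9 pattern occurred in 51 of 41174 probes (0.124%) and the Pcdh19 pattern in 130 (0.316%), and each in 1 of the 73 protocadherin probes. The letters describe the probe and nothing more.

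Signals are log2 values relative to the 75th percentile of each array, which ranged from 898 to 1277 in intensity, and each array had 70.3% to 78.8% of its probes clear of background. Precision is limited by having 5 arrays a group. HE 1, HE 2 and NC 5 shared slide 2, HE 3 to HE 5 lay on slide 3, and NC 1 to NC 4 lay on slide 1. Each slide was scanned separately, so slides and scans are the same batch, and only slide 2 holds both groups. The sex label went against the signal on 7 of 10 arrays: Xist was high and Y-linked genes low on HE 1 to HE 3 and on NC 1 to NC 4. The thalamic markers, 12 of 15 lower in HE, averaged -1.26 to 0.32 per HE array against 0.42 to 1.77 per NC array, with no overlap. Other marker lists held called genes too, beside 13.9% of 20065 genes called lower and 6.48% called higher. A list with only 1 called gene is not read as a shift. Lower in HE were 7 of 10 myelin, 4 of 7 liver, 1 of 8 endothelial and 1 of 5 astrocyte genes. Higher in HE were 3 of 13 hippocampal neuron, 4 of 8 interneuron, 1 of 6 microglial and 1 of 8 cortical genes, while Pvalb, in parvalbumin interneurons, fell. Of 7 choroid plexus and 6 oligodendrocyte precursor genes, limma called 0 (0 and 1 at an unadjusted p under 0.05). The liver signal stood on NC 1, NC 2 and NC 4. The part these lists play in the results below was not tested.

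Of the 73 probes, 69 entered the test, being well above background on at least 3 of 5 arrays of a group. Pcdhb1, Pcdhga12, 1 of 2 Pcdh12 probes and 1 of 4 Pcdh15 probes were well above background on no array. With limma and Benjamini-Hochberg adjustment over 30978 probes at a threshold of 0.05, 16 protocadherin probes differed, 4 higher and 12 lower in HE. The background over all tested probes was 23.2%, made up of 7.71% higher and 15.5% lower, and the protocadherin share came to the same 23.2%. The split moved with the scaling, to 8 higher and 8 lower after quantile normalization (background 24.0%), 9 and 28 with normexp background correction (46.4%), and 13 and 15 with normexp centred on the median probe (46.9%). Over all probes these splits were 3605 and 3842, 2329 and 12043, and 5859 and 8684. Leaving out NC 1 turned it to 9 higher and 6 lower, while over all 30978 probes 2404 were higher and 4347 lower in that fit. A share at the background is no result about the family, so the members are described one by one. By class, 0 of 6 alpha, 4 of 27 beta, 2 of 9 gamma and 9 of 26 non-clustered probes passed, besides Pcdha4-g. The median log2 difference, HE minus NC, was 0.33 for alpha, -0.10 for beta, 0.11 for gamma and -0.41 for non-clustered probes, beside -0.05 for all probes. The beta median turned to 0.10 after quantile normalization, and the gamma median to -0.96 with normexp background correction. In tissue RNA, fewer cells of a type and less RNA per cell cannot be told apart.

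**Figure D1:**
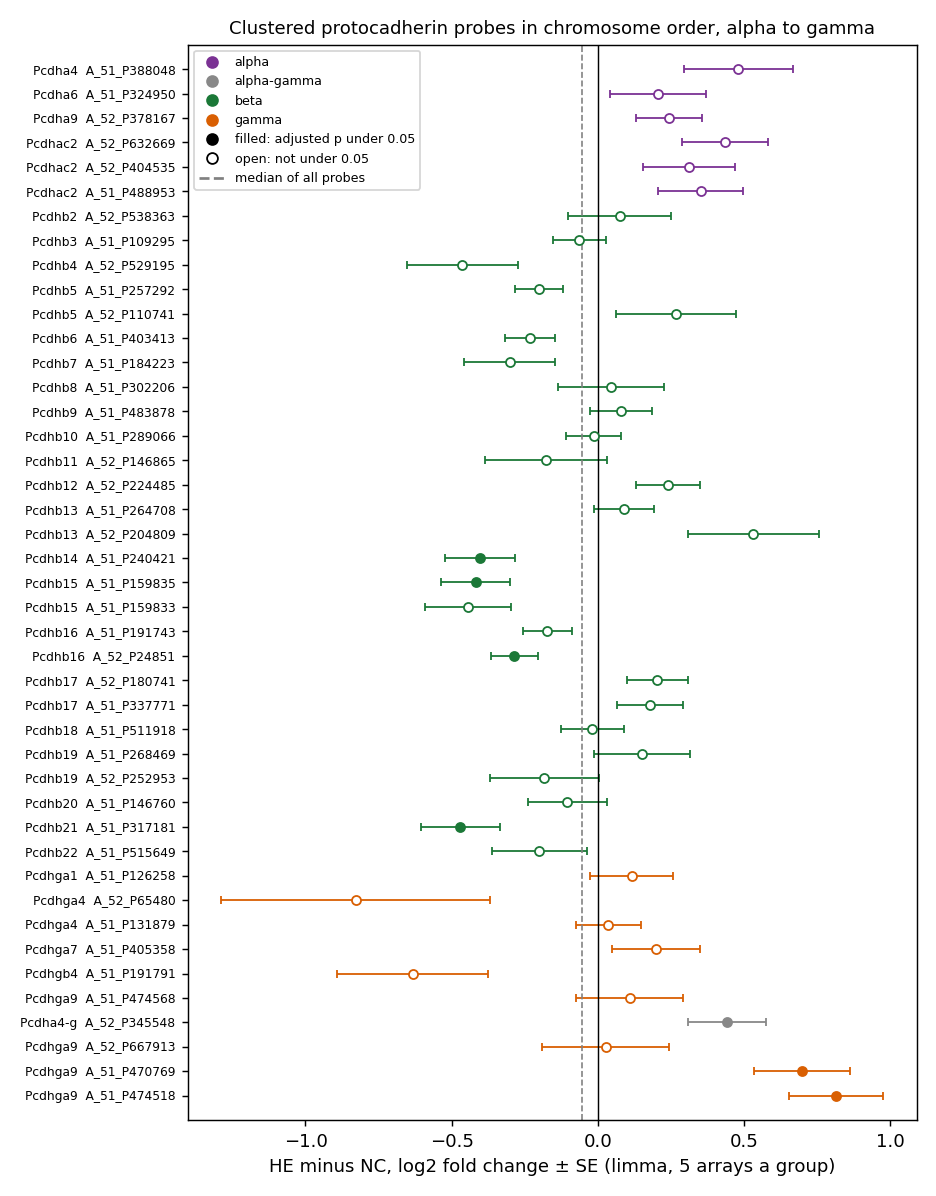
Difference between HE and NC (log2 fold change ± SE, horizontal axis) for the 43 tested probes of the clusters, in chromosome order from alpha at the top to gamma at the bottom. All 6 alpha probes lie right of 0 (4 of 6 with normexp, 5 of 6 after adjustment for the thalamic mean). Beta probes lie on both sides with 4 filled points on the left, and the filled gamma points are the 2 probes at the end of the cluster.

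In the alpha cluster all 6 differences were positive, from 0.21 to 0.48, and none passed the limma test at the adjusted threshold (3 had an unadjusted p under 0.05), while with normexp Pcdha4 and Pcdha6 turned to -0.07 and -0.10. The 3 probes under the name Pcdhac2 list transcripts of 4 alpha genes, so they read the shared exons and sum over the cluster. Pcdhac2 itself encodes a C-type protein that serotonergic axons need to spread apart. The probe at chromosome 18, 37344758 to 37344817 (mm9), gave 4.27, 4.15, 4.15, 4.37 and 4.18 on HE 1 to HE 5, against 4.38, 4.01, 3.79, 3.97 and 3.42 on NC 1 to NC 5. HE arrays were close together, while NC 5 was the lowest and NC 1 the highest of all 10, so the groups overlapped. The difference was 0.31 ± 0.16 (SE, limma adjusted p = 0.172). The other shared-exon probes differed by 0.44 ± 0.15 (adjusted p = 0.0557) and 0.35 ± 0.15 (adjusted p = 0.104). Within slide 2 the 3 differences were 0.79, 0.90 and 0.80, because NC 5 is the control of that slide. After adjustment for the thalamic mean they were 0.01, 0.19 and 0.12.

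The probes of single alpha variable exons behaved alike. Pcdha4, at -2.57 to -1.80 on HE arrays and -3.01 to -2.22 on NC arrays, differed by 0.48 ± 0.19 (adjusted p = 0.0849). Pcdha9 lay at -0.41 to -0.22 on HE arrays and -0.81 to -0.20 on NC arrays, and the difference was 0.24 ± 0.11 (adjusted p = 0.141). For Pcdha6 it was 0.21 ± 0.16 (adjusted p = 0.381). HE and NC overlapped at all 3. After adjustment for the thalamic mean, Pcdha4 was at 0.38, Pcdha9 at 0.09 and Pcdha6 at -0.02. With normexp the shared-exon probes were at 0.49 to 0.68 and Pcdha9 at 0.20, while Pcdha4 and Pcdha6 were negative, as given above.

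The gamma cluster gave the largest rises among the tested protocadherin probes, at a pair of overlapping probes of its shared exons. Gamma protocadherins act in synapse and dendrite development and keep interneurons alive in the young nervous system. Both probes carry the name Pcdhga9 but list transcripts of 4 gamma genes, and they share 40 bases, so they count as 1 place on the transcript. The probe at chromosome 18, 38001376 to 38001435, gave 5.40, 5.23, 5.55, 5.34 and 5.52 on HE 1 to HE 5, against 4.82, 4.58, 4.69, 4.87 and 4.01 on NC 1 to NC 5. Every HE array lay above every NC array, and NC 5 was the lowest. The rise was 0.82 ± 0.16 (1.76-fold, adjusted p = 0.0113). Its overlapping neighbour gave 4.82, 4.71, 4.98, 4.48 and 4.96 on HE 1 to HE 5, against 4.41, 4.02, 4.10, 4.35 and 3.59 on NC 1 to NC 5. Again the groups did not overlap, with a rise of 0.70 ± 0.16 (adjusted p = 0.0178). Over all tested probes the groups were apart for 17.4%, with HE wholly above NC for 6.22%. Among the 69 protocadherin probes they were apart for 8, 2 with HE above and 6 with HE below.

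Not all of the gamma region moved. A further shared-exon probe, 1571 bases upstream at 37999725 to 37999784, gave 1.5, 1.61, 1.24, 1.28 and 1.56 on HE 1 to HE 5, against 2.0, 1.84, 0.85, 1.28 and 1.08 on NC 1 to NC 5. HE sat inside the range of NC, where NC 1 and NC 2 were highest and NC 3 lowest, and the difference was 0.03 ± 0.22 (adjusted p = 0.943). It depended on the fit, at 0.48 within slide 2 and -0.73 after adjustment for the thalamic mean. With centred normexp it was 0.55 and passed (limma adjusted p = 0.0237), where 46.9% of all probes were called. Pcdha4-g, 15003 bases before that probe, gave 0.28, 0.32, 0.23, 0.12 and 0.40 on HE 1 to HE 5, against 0.14, 0.04, -0.30, -0.18 and -0.55 on NC 1 to NC 5. Only NC 1 reached into the HE range, and the rise was 0.44 ± 0.13 (adjusted p = 0.0383). This call was lost without any 1 of HE 1 to HE 5, NC 3, NC 4 and NC 5, and over all 10 fits that left out 1 array the difference ran from 0.35 to 0.52. The 2 overlapping probes passed in all 10 fits that left out 1 array, at 0.67 to 0.88 and 0.57 to 0.78.

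Within slide 2 the overlapping gamma probes differed by 1.31 and 1.17 and Pcdha4-g by 0.85. Fitted over all 10 arrays with slide as a block, the probe at 38001376 passed (adjusted p = 0.0406) and its neighbour did not (adjusted p = 0.0724). It was the only one of 69 protocadherin probes called in that fit, where 0.807% of all probes were called. The difference in that fit is the one within slide 2, of HE 1 and HE 2 against NC 5, since slides 1 and 3 hold 1 group each. Only its spread draws on all 10 arrays, so the fit is no separate support. On slide 2 the NC array also carried high Y-linked signal and both HE arrays high Xist. After adjustment for the thalamic mean the 3 values were 0.44, 0.13 and -0.06.

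**Figure D2:**
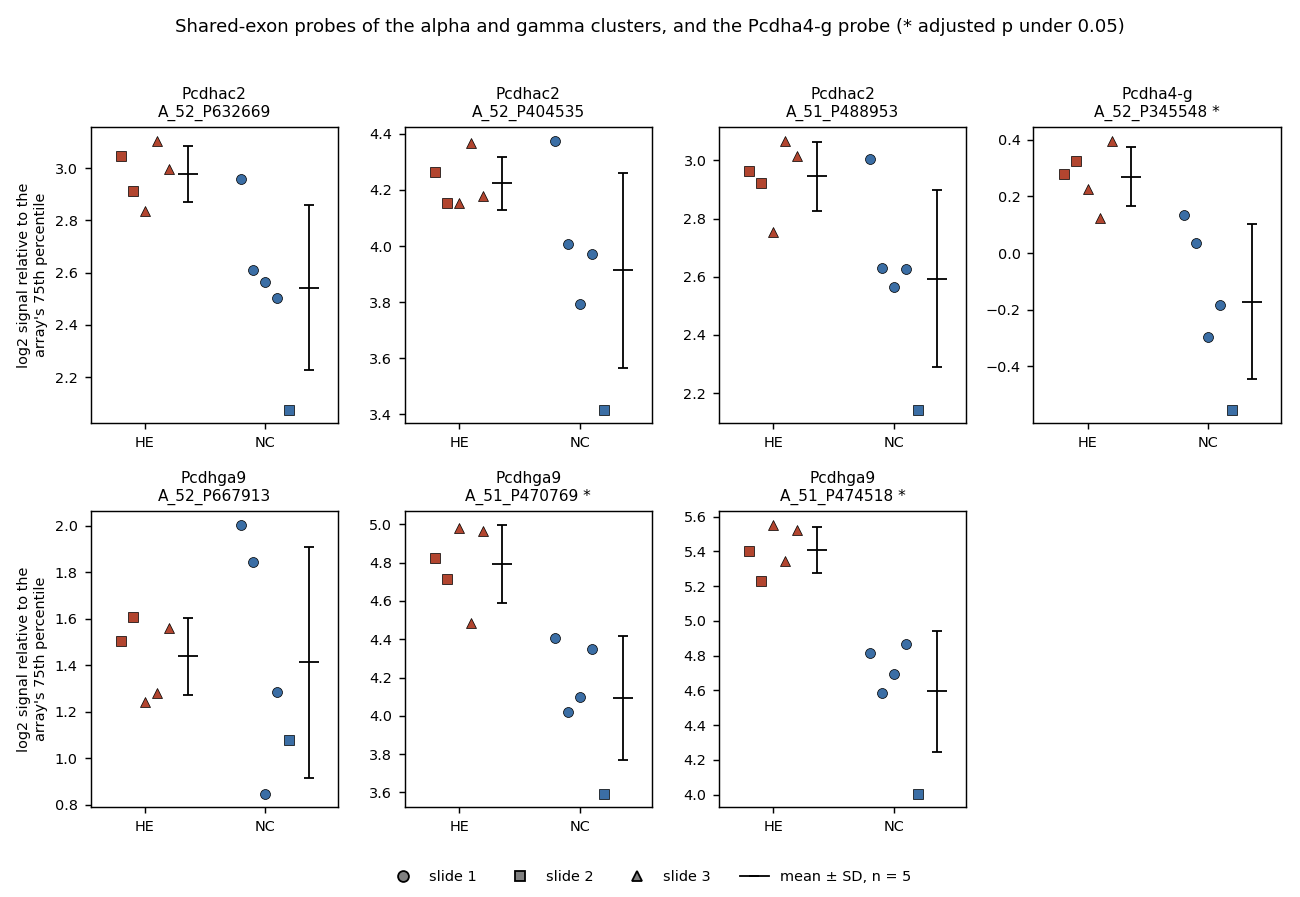
Signal on each array (log2 relative to the array's 75th percentile, a separate scale in each panel) for 3 shared-exon alpha probes, Pcdha4-g and 3 shared-exon gamma probes, with HE at the left and NC at the right and the slide shown by the marker. Bars are mean ± SD of 5 arrays. The last 2 gamma panels show HE wholly above NC, and the square in NC, which is NC 5, is the lowest NC point in all panels except the Pcdhga9 probe A_52_P667913.

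Of the 6 tested probes of single gamma variable exons, limma called 0 (1 had an unadjusted p under 0.05), and the positive differences given next were negative with normexp, at -1.28 to -0.50. Pcdhga7 lay at -4.41 to -4.36 on HE arrays and -5.17 to -4.32 on NC arrays and differed by 0.20 ± 0.15 (adjusted p = 0.355). The variable-exon probe of Pcdhga9 differed by 0.11 ± 0.18 (adjusted p = 0.698), and that of Pcdhga1 by 0.12 ± 0.14 (adjusted p = 0.588). Pcdhgb4 lay at -6.25 to -5.58 on HE arrays and -5.90 to -4.69 on NC arrays, with a difference of -0.63 ± 0.26 (adjusted p = 0.10). Pcdhga4 had 2 probes that disagreed, at -0.83 ± 0.46 and 0.03 ± 0.11 (adjusted p = 0.210 and 0.848). No member of the gamma C type other than through the shared exons was among the probes.

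In the beta cluster 4 of 27 tested probes fell and none rose. That is 14.8%, beside 15.5% called lower over all tested probes, so the count is at the background. Positive differences were seen at 10 of 27 (14 after quantile normalization, 1 with normexp). The called probes are of Pcdhb14, Pcdhb15, Pcdhb16 and Pcdhb21, while none of Pcdhb17 to Pcdhb20, which lie between, passed. No pattern along the cluster is read from these calls. Beta proteins take part in the same recognition between cells, though they lack the constant cytoplasmic end of alpha and gamma proteins. Pcdhb14 gave -0.33, -0.34, 0.09, -0.19 and -0.06 on HE 1 to HE 5, against 0.48, 0.37, 0.10, 0.10 and 0.13 on NC 1 to NC 5. HE 3 almost touched NC 3 and NC 4, but the groups did not overlap, and the fall was -0.40 ± 0.12 (adjusted p = 0.0375). Over all tested probes, HE lay wholly below NC for 11.2%.

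Pcdhb15 had 2 probes that share 20 bases. The one that passed gave -1.66, -1.58, -1.45, -1.35 and -1.59 on HE 1 to HE 5, against -0.87, -0.96, -1.42, -1.19 and -1.09 on NC 1 to NC 5. NC 3 lay within the HE range and the other NC arrays above it, for a difference of -0.42 ± 0.12 (adjusted p = 0.0302). Its overlapping neighbour differed by -0.45 ± 0.15 (adjusted p = 0.0528). Pcdhb16 likewise had 1 probe of 2 that passed, with -2.03, -2.02, -1.80, -1.96 and -1.98 on HE 1 to HE 5, against -1.65, -1.62, -1.81, -1.69 and -1.60 on NC 1 to NC 5. Here HE 3 reached the level of NC 3, and the 2 probes differed by -0.29 ± 0.08 (adjusted p = 0.0322) and -0.17 ± 0.08 (adjusted p = 0.158). A Pcdhb15 probe matches the Pcdhb16 probe that did not pass at 38 bases, so signal from one could reach the other.

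Pcdhb21 gave 0.60, 0.58, 0.58, 0.89 and 0.84 on HE 1 to HE 5, against 1.37, 1.35, 0.86, 0.92 and 1.35 on NC 1 to NC 5. NC 1, NC 2 and NC 5 stood apart above the rest, and NC 3 and NC 4 met HE 4 and HE 5, for a difference of -0.47 ± 0.14 (adjusted p = 0.0332). Pcdhb6, with no overlap, gave -0.15 to 0.07 on HE arrays and 0.08 to 0.30 on NC arrays and missed the threshold at -0.23 ± 0.08 (adjusted p = 0.0711). Differences of the other uncalled beta probes reached from -0.46 at Pcdhb4 to 0.53 at one of the Pcdhb13 probes (adjusted p = 0.0992 and 0.110). A faint Pcdhb5 probe, with group means of -4.98 in HE and -5.24 in NC, gave 0.27 ± 0.20 (adjusted p = 0.364).

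Each of the 4 beta calls rested on several arrays. Pcdhb14 no longer passed without any 1 of HE 1, HE 2, HE 4, HE 5, NC 1, NC 2 and NC 5 (-0.47 to -0.34 over all arrays left out). Pcdhb15 lost its call without HE 1, HE 2, HE 5, NC 1, NC 2 or NC 5 (-0.50 to -0.36 over all), and Pcdhb16 without HE 1, HE 2, HE 4, HE 5, NC 2 or NC 5 (-0.32 to -0.27 over all). For Pcdhb21 those arrays were HE 1, HE 2, HE 3, NC 1, NC 2 and NC 5 (-0.55 to -0.42 over all). Within slide 2 the differences were -0.47, -0.53, -0.42 and -0.76, and after adjustment for the thalamic mean they were -0.72, -0.50, -0.35 and -0.48. With normexp values centred on the median probe, Pcdhb14 and Pcdhb21 were at -0.01.

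**Figure D3:**
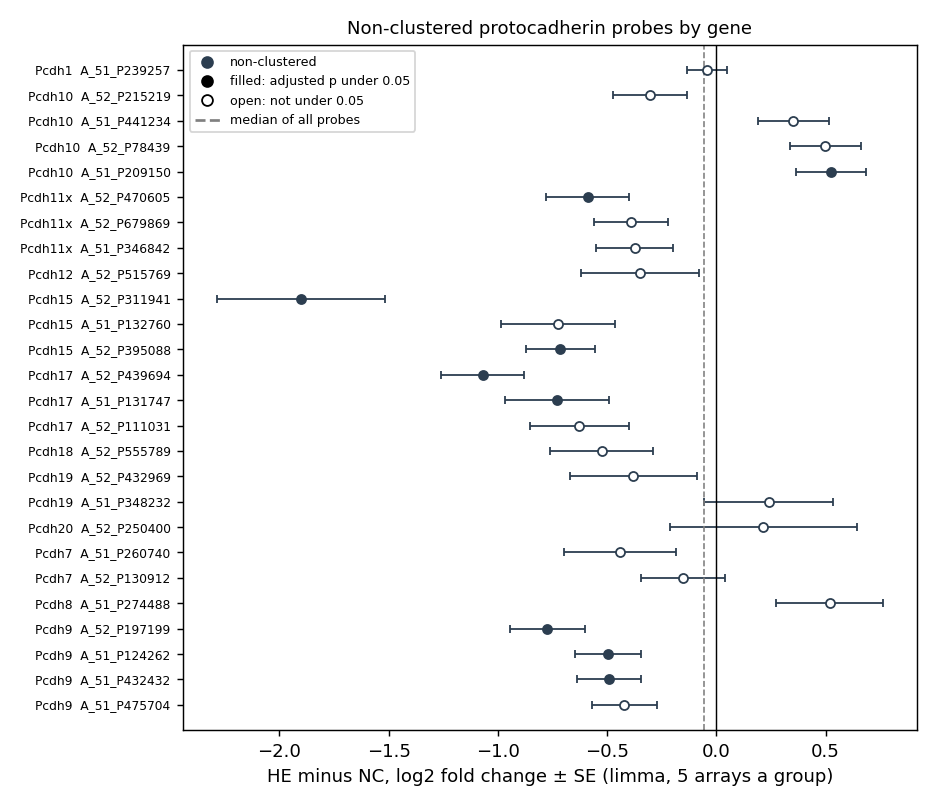
Difference between HE and NC (log2 fold change ± SE) for the 26 tested probes of non-clustered genes, sorted by gene. All tested probes of Pcdh9, Pcdh11x, Pcdh15 and Pcdh17 lie left of the median of all probes, and 3 of 4 Pcdh10 probes lie right of 0.

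Among the non-clustered genes, Pcdh15, Pcdh17, Pcdh9 and Pcdh11x fell at 1 probe or more, and Pcdh10 rose at 1. Pcdh15 encodes one of the proteins of the tip link, the filament that opens the channels of inner-ear hair cells, and in brain it is known from oligodendrocyte precursors. The probe at chromosome 10, 73793664 to 73793723, gave -5.42, -5.23, -6.68, -4.93 and -5.23 on HE 1 to HE 5, against -3.52, -2.78, -4.50, -3.97 and -3.20 on NC 1 to NC 5. All HE arrays were lower than all NC arrays, HE 3 lay far below the rest, and on 1 of 5 HE arrays the probe was not well above background. Like the probes of Pcdh17 at 84877710, Pcdh9 at 94284843 and Pcdh10 at 45239449 below, it lists no transcript of the RefSeq table, so its name is that of the array's design, and whether it lies in an exon was not analysed here. The fall was -1.90 ± 0.38, to 0.267 of the NC signal (adjusted p = 0.0119).

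At 74108685 to 74108744, another Pcdh15 probe gave -2.35, -2.46, -2.60, -2.32 and -2.18 on HE 1 to HE 5, against -1.80, -1.23, -1.97, -1.93 and -1.43 on NC 1 to NC 5. The groups were apart here too, with a difference of -0.71 ± 0.16 (adjusted p = 0.0149), whereas a probe at 74095271 overlapped and gave -0.72 ± 0.26 (adjusted p = 0.0689). Both calls held in all 10 fits that left out 1 array, at -2.13 to -1.61 and -0.79 to -0.60. Within slide 2 they were -2.12 and -0.98, and after adjustment for the thalamic mean -1.68 and -0.76. Cdh23, whose protein is the partner of Pcdh15 in the tip link, fell by 0.86 (adjusted p = 0.0162 over 20065 genes), at -4.90 ± 0.38 in HE and -4.04 ± 0.22 in NC (SD, n = 5 each). The 6 oligodendrocyte precursor markers averaged 1.43 to 1.55 per HE array and 1.32 to 1.74 per NC array.

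Pcdh17 gathers axons of like kind and sits at synapses of the corticobasal pathways. Its probe at chromosome 14, 84877710 to 84877769, gave -4.58, -4.54, -4.64, -4.37 and -4.19 on HE 1 to HE 5, against -3.37, -2.82, -3.82, -3.76 and -3.21 on NC 1 to NC 5. HE lay wholly below NC, and the fall was -1.07 ± 0.19 (adjusted p = 0.00898), the smallest p of the family. The 2 further probes, 84933861 to 84933920 and 84936704 to 84936763, gave -0.63 ± 0.23 (adjusted p = 0.0687) and -0.73 ± 0.24 (adjusted p = 0.0490). The strongest of the 3, at 84933861 with group means of 1.82 in HE and 2.45 in NC, is the one that did not pass. NC 2 was the highest array at all 3. The first call held in all 10 fits that left out 1 array (-1.17 to -0.92). That at 84936704 held in 1 of them, without NC 4, and ran from -0.89 to -0.56 over all 10. Within slide 2 the probes differed by -1.35, -1.0 and -1.13 in this order, and after adjustment for the thalamic mean by -1.29, -1.13 and -1.20.

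Pcdh9 is a protocadherin of cortical and thalamic neurons that mice need for long-term recognition memory. All 4 of its probes had negative differences, 3 of them past the threshold. The fourth turned to 0.19 with centred normexp and to 0.12 after adjustment for the thalamic mean. That adjustment also turned a called probe, given below. The probe at chromosome 14, 94284843 to 94284902, gave 3.37, 3.46, 2.91, 3.54 and 3.34 on HE 1 to HE 5, against 4.57, 4.14, 3.89, 3.74 and 4.16 on NC 1 to NC 5. The highest HE array, HE 4, stayed below the lowest NC array, NC 4, and the fall was -0.77 ± 0.17, to 0.585 of the NC signal (adjusted p = 0.0148). The printed Pcdh9 probe gave -0.05, 0.21, -0.25, 0.49 and 0.14 on HE 1 to HE 5, against 0.81, 0.35, 0.64, 0.49 and 0.70 on NC 1 to NC 5. HE 4 met the lower NC arrays there, for a difference of -0.49 ± 0.15 (adjusted p = 0.0365). At the 3′ end of the gene, 93414527 to 93414586 and 93413428 to 93413487, the differences were -0.50 ± 0.15 (adjusted p = 0.0392) and -0.42 ± 0.15 (adjusted p = 0.0636).

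The Pcdh9 probe at 94284843 passed whichever array was left out (-0.86 to -0.66), but not with normexp (-0.47, adjusted p = 0.0908, or -0.10 after centring on the median probe). The printed probe failed without HE 1, HE 2, HE 3, HE 5, NC 1, NC 3 or NC 5 (-0.59 to -0.40 over all 10 fits), and that at 93414527 without HE 1, HE 3, HE 5, NC 1, NC 3, NC 4 or NC 5 (-0.57 to -0.39 over all 10). After adjustment for the thalamic mean, the probe at 94284843 was at -0.76, the printed one at -0.07 and that at 93414527 at 0.05. Within slide 2 the values were -0.74, -0.62 and -0.54.

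Pcdh11x, X-linked and made in cortical neurons, had 3 probes, all with negative differences. That at chromosome X, 117708334 to 117708393, gave -4.47, -4.56, -4.42, -4.71 and -4.13 on HE 1 to HE 5, against -3.97, -3.59, -4.53, -3.57 and -3.68 on NC 1 to NC 5. NC 3 lay among the HE arrays, and the difference was -0.59 ± 0.19 (adjusted p = 0.0493). The printed junction probe gave -0.37 ± 0.17 (adjusted p = 0.143) and the remaining one -0.39 ± 0.17 (adjusted p = 0.115). Without any 1 of HE 1 to HE 4, NC 1, NC 2, NC 4 and NC 5 the call was lost, and over all 10 fits that left out 1 array the difference ran from -0.75 to -0.51. Quantile normalization gave -0.32 and slide 2 alone -0.83. Of 25 alternative fits, those without 1 array included, the probe passed in 6. With the Xist pattern as a covariate it did not pass.

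Pcdh10 guides striatal and thalamocortical axons and binds the WAVE complex through Nckap1. Its junction probe, printed above, gave 2.76, 2.52, 3.14, 2.73 and 2.96 on HE 1 to HE 5, against 2.60, 2.53, 2.33, 2.10 and 1.94 on NC 1 to NC 5. The lowest HE array, HE 2, lay just under the 2 highest NC arrays, and the rise was 0.52 ± 0.16 (1.44-fold, adjusted p = 0.0402). Upstream, at 45186257 to 45186316, the difference was 0.35 ± 0.16 (adjusted p = 0.138), and downstream, at 45223865 to 45223924, 0.50 ± 0.16 (adjusted p = 0.0507). The most distal probe, at 45239449 to 45239508, went the other way at -0.30 ± 0.17 (adjusted p = 0.218). The junction call was lost without HE 1, HE 3, HE 4, HE 5, NC 2, NC 3, NC 4 or NC 5 (0.43 to 0.60 over all 10 fits), and after adjustment for the thalamic mean the value was 0.00, while within slide 2 it was 0.71.

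**Figure D4:**
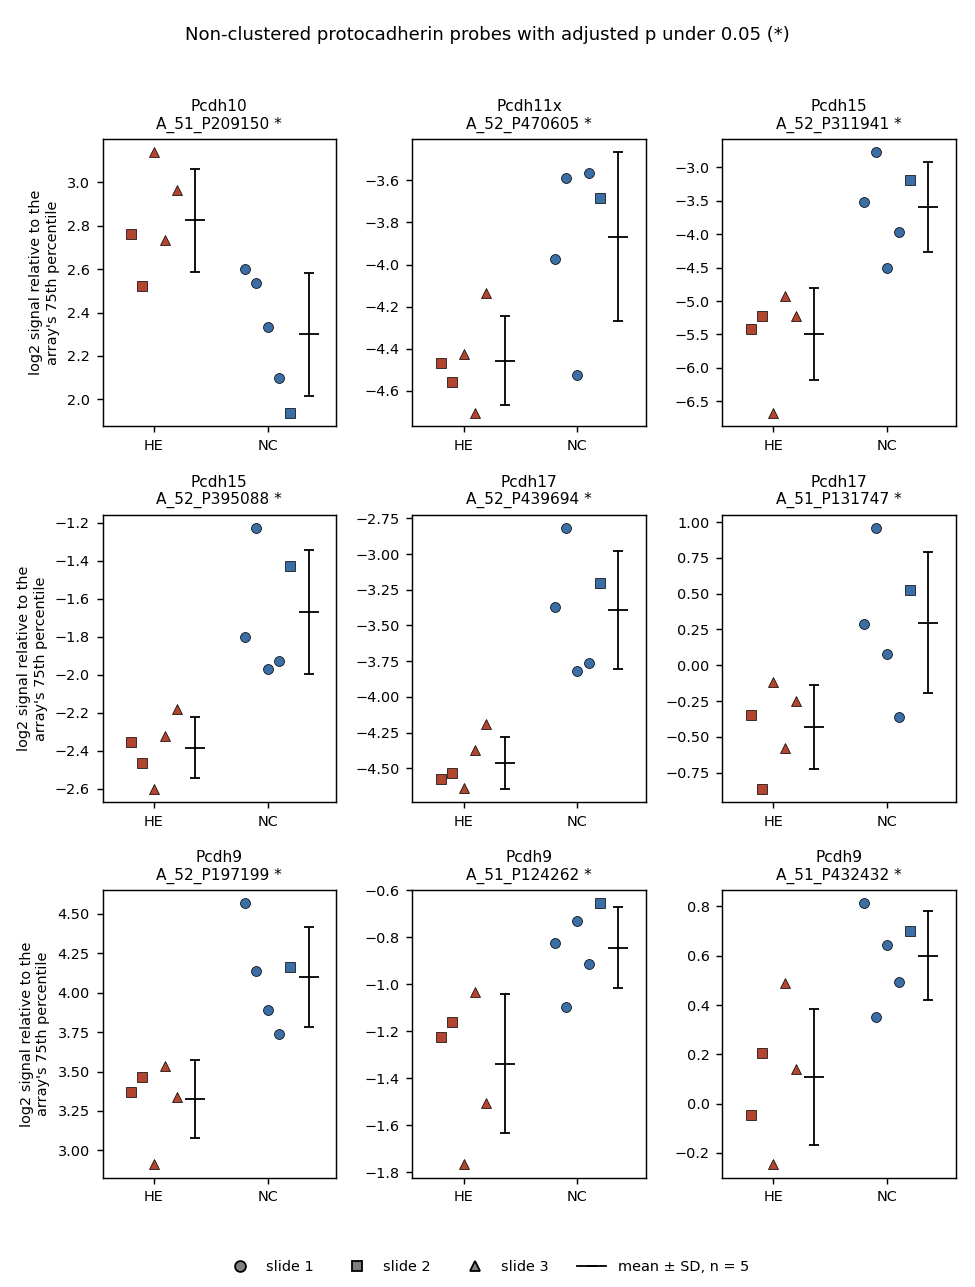
Signal on each array (log2 relative to the array's 75th percentile, a separate scale in each panel) for the 9 non-clustered probes that passed the test, HE at the left and NC at the right, with the slide shown by the marker and bars for mean ± SD of 5 arrays. HE lies wholly below NC for both Pcdh15 probes, for the Pcdh17 probe A_52_P439694 and for the Pcdh9 probe A_52_P197199.

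The other non-clustered genes did not pass. Pcdh8, an activity-induced protein that in rat neurons draws N-cadherin off synapses, gave 1.53, 1.44, 1.07, 1.70 and 1.63 on HE 1 to HE 5, against 0.55, 1.42, 0.58, 1.66 and 0.56 on NC 1 to NC 5. NC 2 and NC 4 lay within the HE range and NC 1, NC 3 and NC 5 below it, for a difference of 0.52 ± 0.25 (adjusted p = 0.147). Pcdh20, at 0.12 to 2.22 on HE arrays and 0.37 to 2.19 on NC arrays, differed by 0.22 ± 0.43 (adjusted p = 0.745). HE 4 and NC 4 were its highest arrays, and its spread within groups exceeded that of 93.8% of tested probes. Pcdh19, whose loss on one X chromosome in human females causes epilepsy, gave -0.38 ± 0.29 and 0.24 ± 0.30 at its 2 probes (adjusted p = 0.364 and 0.587). Its probe at chromosome X, 130122356 to 130122415, lay at 1.09 to 2.93 on the 7 arrays with high Xist and at 1.97 to 2.20 on the other 3.

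Pcdh18, which in mice binds the adaptor Dab1, lay at -2.61 to -2.14 on HE arrays and -2.52 to -1.28 on NC arrays, with a difference of -0.52 ± 0.24 (adjusted p = 0.130). Pcdh7, a partner of protein phosphatase 1 alpha, gave -0.44 ± 0.26 and -0.15 ± 0.19 (adjusted p = 0.230 and 0.599). For Pcdh1, an adhesion protein of epithelia and brain, the difference was -0.04 ± 0.09 (adjusted p = 0.769). Pcdh12, of endothelial cells, gave -0.35 ± 0.27 (adjusted p = 0.367) and 0.75 with slide as a block. NC 5 was the lowest array at -5.75 and the other NC arrays lay above all HE arrays. The endothelial list had a median difference of -0.39, beside -0.06 for all genes. With 1 of 8 genes called, it is not read as a shift.

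**Figure D5:**
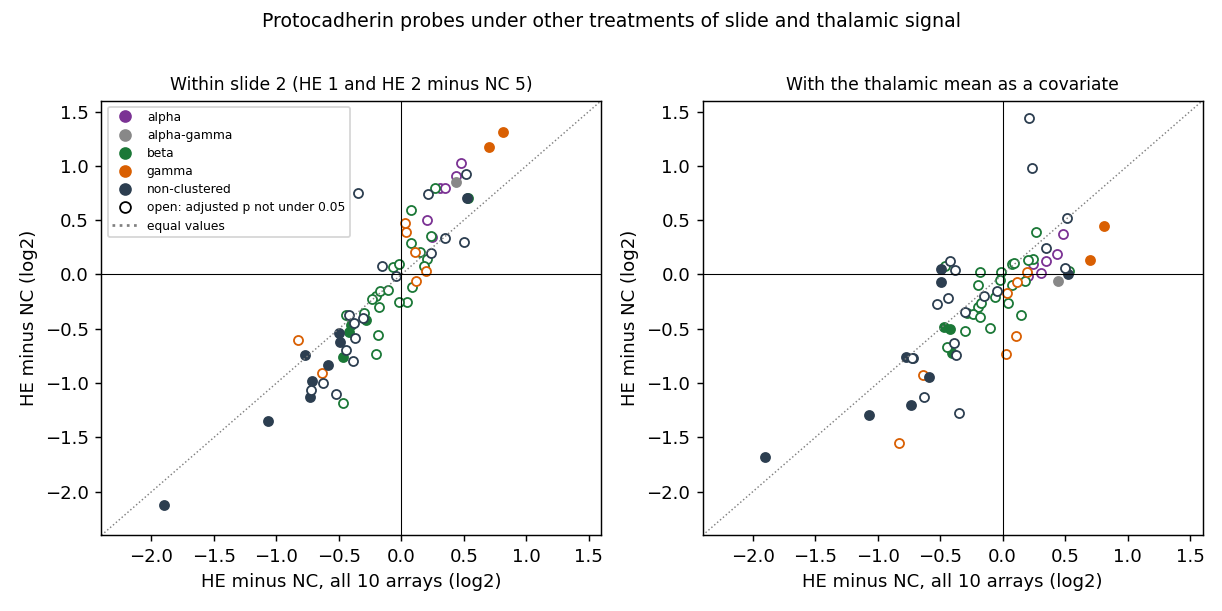
Difference between HE and NC (log2) for the 69 tested protocadherin probes over all 10 arrays (horizontal axis) against the same difference within slide 2 (left) and after adjustment for the thalamic mean (right), coloured by class, filled where the adjusted p over all 10 arrays was under 0.05. The 2 overlapping gamma probes lie at 1.31 and 1.17 on the left and at 0.44 and 0.13 on the right, and the Pcdh15 probe at the far left lies at -2.12 and -1.68.

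Because slide, thalamic signal and group run together, these fits are given side by side and none is preferred. On slide 2 alone, limma called 0 of 69 protocadherin probes and 0 of 30978 probes in all (0.0%), with 33 and 10918 at an unadjusted p under 0.05. After adjustment for the thalamic mean the calls were again 0 and 0 (0.0%), with 8 and 4492 at an unadjusted p under 0.05. HE and NC do not overlap in that mean, and 16 of 69 protocadherin differences changed sign with it, among them 2 of the 16 called probes. On the 7 arrays with high Xist, 0 protocadherin probes and 104 of all probes (0.336%) were called by limma, with 14 and 8582 at an unadjusted p under 0.05. No slide holds both groups among those 7. Without NC 1, NC 2 and NC 4, 6 protocadherin probes were higher and 1 lower (background 9.37%, with 1341 of all probes higher and 1563 lower). The Xist pattern as a covariate gave 5 higher and 10 lower (background 24.7%, with 2547 of all probes higher and 5117 lower).

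Genes that act with protocadherins were read as genes, 1 probe each, where 20.4% of 20065 genes passed, 6.48% higher and 13.9% lower, at a median of -0.06. Of 29 tested partners inside the cell or in its membrane, 7 rose in the limma test, none fell (2 had a negative difference with an unadjusted p under 0.05), and the median was 0.20. Nckap1, the WAVE subunit bound by Pcdh10, rose by 0.82 (adjusted p = 0.0106), at 1.15 ± 0.27 in HE and 0.33 ± 0.20 in NC (SD, n = 5 each). Abi2, also of the WAVE complex, rose by 0.44 (adjusted p = 0.0358), while 1 of its 3 tested probes had the opposite sign. Nlgn2, a neuroligin of inhibitory synapses, rose by 0.58 (adjusted p = 0.0186), and Axin1, a scaffold of Wnt signalling, by 0.57 (adjusted p = 0.0173). Dab1, a reelin adaptor, rose by 0.48 (adjusted p = 0.0273), and Mapk14, the p38 kinase that acts after Pcdh8 in rat neurons, by 0.39 (adjusted p = 0.0330). Calls of Nckap1, Nlgn2 and Axin1 held in all 10 fits that left out 1 array, though Axin1 turned to -0.28 with normexp. Abi2 failed without HE 1, HE 3, HE 4, HE 5, NC 2, NC 3, NC 4 or NC 5 (0.38 to 0.53 over all 10 fits), Mapk14 without HE 1, HE 2, HE 3, NC 2, NC 3 or NC 5 (0.32 to 0.45 over all 10), and Dab1 without HE 3, HE 4, HE 5 or NC 5 (0.39 to 0.55 over all 10).

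Of 21 genes that control promoter choice in the clusters, 1 passed. Ehmt2, a histone H3 lysine methyltransferase, rose by 0.40 (adjusted p = 0.0219), with 5.04 ± 0.12 in HE and 4.63 ± 0.15 in NC (SD, n = 5 each), and failed without HE 1 (0.34 to 0.44 over all arrays left out). The median over the 21 was 0.02. Ctcf, whose protein binds the cluster promoters, differed by 0.10 (adjusted p = 0.630), and the cohesin subunit Rad21 by -0.17 (adjusted p = 0.240).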

How the data were processed

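Total RNA of each hippocampus was labelled with Cy3 and read on an Agilent 1-colour array, per the labels' protocols, and the submitters' processing notes name Agilent Feature Extraction 10.7. The scanner files hold spot intensity on a linear scale, background-subtracted and detrended within each array, per the file headers. The value table that the authors deposited holds log2 values, which matched log2 processed signals after quantile normalization (slopes of 1.0021 to 1.0028, column medians near 7.033), so that neither scale nor direction is in doubt; it shows no centring, and its software is not given in the sources used here.

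Processed signals were divided by the 75th percentile of the 41174 non-control probes of each array and put on the log2 scale. Between 68 and 129 spots per array, marked as non-uniform or population outliers, were left out, no spot was saturated, and replicate spots were averaged. A probe was tested if well above background on at least 3 of 5 arrays of at least 1 group, and 30978 did. Groups were compared over all 10 arrays in R 4.3.3 with limma 3.58.1, using lmFit and eBayes without covariates and two-sided p-values, with Benjamini-Hochberg adjustment over all tested probes and a threshold of 0.05. Figures were drawn with matplotlib 3.10.9. The same limma steps were also run on simulated data that had the means and spreads of the tested probes. No 2 arrays were duplicates.

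Probes kept the gene names of the files for membership. An alpha or gamma probe counts as one of shared exons where its listed transcripts name at least 3 genes. A Pcdhb18 probe also lists 3 beta genes, so it may not read Pcdhb18 alone. Lists were read with the strongest entering probe of each of 20065 symbols, named through RefSeq accessions of GRCm38.p6, or by symbol or synonym, and 7422 of 41174 probes kept the file's name. Positions are on mm9 as in the files, probe sequences are those of the files, and no genome sequence was used here. All non-clustered genes are named. For each cluster, called probes, shared-exon and C-type probes and the strongest and faintest tested probe are named, and for each list the called genes, at most 6. Members and lists were chosen with earlier results of these data known. Alternatives treated slide as a block, fixed or random, used slide 2 only, blocked on the replicate number, took the value table, quantile normalization or normexp (offset 50), changed the filter, the joining of probes or the prior, added the Xist pattern or the thalamic mean to the fit, or left out arrays. Normexp centred on the median probe was chosen after seeing the data.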

Additional observations from a re-analysis of the deposited data

Results flagged for a closer look

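In 9 of 138 groups of 5 arrays, for the 69 tested protocadherin probes in HE and in NC, 1 array lay apart from the other 4 by Dixon's test, whose critical ratio for 5 values is 0.71. Chance marks about 1 in 20 such groups. HE 3 and NC 3 account for 3 of the 9 each.

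The Pcdh15 probe that fell most had its lowest HE array, HE 3, at -6.68, while the other HE arrays lay between -5.42 and -4.93. For Pcdhb8, a beta gene with no call, HE 3 was high at -3.93 and NC 3 low at -5.03. The Pcdhb17 probe A_52_P180741 also had HE 3 on top, at -0.64. In Pcdhb7, HE 1 was lowest at -0.87, and in Pcdhb10 HE 5 was lowest at -2.38, although the other HE arrays of Pcdhb10 lay within -2.32 to -2.29. Pcdhga4 had NC 4 at -6.56 on 1 of its 2 probes, while the other NC arrays lay between -4.66 and -3.93. For Pcdhga7, NC 3 was lowest at -5.17. For Pcdh1, NC 3 was lowest at -0.0115.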

How the results depend on the processing

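Counts of called protocadherin probes moved with most settings. Against 16 in all (4 higher, 12 lower, of 7174 over all probes), slide as a fixed block gave 1 (of 250), slide 2 alone 0 (of 0), normexp 37 (9 higher, 28 lower, of 14372), and normexp centred on the median probe 28 (13 higher, 15 lower, of 14543). With 1 probe per symbol there were 8 (of 4090) and with the mean of the probes of a symbol 7 (of 4451). The high Xist arrays alone gave 0 (of 104) and the thalamic covariate 0 (of 0). Without NC 1, NC 2 and NC 4 there were 7 (6 higher, 1 lower, of 2904 over all probes, 1341 higher and 1563 lower). No filter on dim probes gave 8 (of 6518, with 41174 probes tested). Leaving out 1 array gave 6 (without HE 1) to 15 protocadherin probes, with 7 without NC 5, 8 without HE 2 or HE 5 and 10 without HE 3 or HE 4. Without NC 1 the 15 were 9 higher and 6 lower (of 6751 over all probes, 2404 higher and 4347 lower). Over all probes, leaving out 1 array gave 3846 (without NC 2) to 7458, with 4174 without NC 5 and 3979 without HE 1. Without HE 2, HE 3, HE 4 and HE 5 the counts over all probes were 5719, 4930, 5270 and 5222. Normexp moved the median of all probes by -0.42, and quantile normalization raised the higher share of all calls to 48.4%, against 33.3%.

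The alpha median of 0.33 was 0.80 with slide as a block or on slide 2 alone, 0.71 with centred normexp, 0.60 without NC 1, NC 2 and NC 4, and 0.11 with the thalamic covariate, and 0.23 to 0.44 when 1 array was left out. The beta median of -0.10 was 0.10 after quantile normalization (0.0973) or in the value table (0.0984), -0.55 with normexp, and -0.17 to -0.04 without 1 array. For gamma, 0.11 became -0.96 with normexp, -0.59 after centring, 0.38 when NC 1, NC 2 and NC 4 were dropped, -0.17 with the thalamic covariate, and 0.04 to 0.17 without 1 array. The non-clustered median of -0.41 was -0.12 with centred normexp and -0.47 to -0.34 without 1 array. Gene counts, 4090 at 1 probe per symbol, were 205 with the slide block, 0 on slide 2 and with the thalamic covariate, 8880 with normexp, 9338 after centring, 77 on high Xist arrays, 1921 when NC 1, NC 2 and NC 4 were dropped, and from 1980 (NC 2 left out) to 4214 when 1 array was left out, with 2251 without NC 5 and 2049 without HE 1.

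Of the 69 tested protocadherin probes, 36 changed sign in at least 1 alternative, 17 with normexp, 19 after centring, 16 with the thalamic covariate, 7 with slide as a block and 7 when some 1 array was left out. Where either value passed, signs turned at Pcdhga1 (-1.28 with normexp, -0.91 after centring), Pcdh9 A_51_P124262 (0.0466) and Pcdha4-g (-0.0612) with the thalamic covariate, and Axin1 (-0.28 with normexp). The causes were not tested. Same-numbered HE and NC arrays do not pair: the correlation of their deviations was -0.07 to 0.15, and 1 of 5 numbers had its best match in its own number. The replicate block gave 9 protocadherin calls (3 higher, 6 lower) and 5797 in all. Probes near background limit Pcdhga1, Pcdhga4, Pcdhgb4 and Pcdh15.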

Other observations

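Among 30 tested classic and other cadherins outside the family, 2 rose and 2 fell, at a median difference of 0.04, where 20.4% of all genes passed. Cdh22, a cadherin of brain and pituitary, rose by 0.90 (limma adjusted p = 0.00665), at 1.18 ± 0.13 in HE and 0.28 ± 0.28 in NC (SD, n = 5 each). Celsr1, a planar polarity cadherin, rose by 0.72 (adjusted p = 0.0116). Cdh19, known from the peripheral glial lineage, fell by 1.35 (adjusted p = 0.00806), but on 3 of 5 HE arrays it was not well above background. The fourth was Cdh23, described with Pcdh15. All 4 calls held in each of the 10 fits that left out 1 array.

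Of 13 genes that flank the clusters on chromosome 18 or lie between them, 1 rose and 1 fell, at a median of 0.01. Taf7, a subunit of the general transcription factor TFIID whose gene lies between the beta and gamma clusters, fell by 0.86 (adjusted p = 0.00977), at -0.50 ± 0.21 in HE and 0.36 ± 0.27 in NC, with no overlap. Its 3 tested probes had the same sign, and the call held in all 10 fits that left out 1 array. Diaph1, a formin that assembles actin and lies beyond the gamma cluster, rose by 0.36 (adjusted p = 0.0343) and failed without HE 1, HE 3, HE 4, HE 5, NC 2, NC 3 or NC 5 (0.30 to 0.41). Slc25a2, which also lies between the clusters, differed by -0.03 (adjusted p = 0.943).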
